A study of Homo sapiens with 6 samples.

Results

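Of the 32453 rows of the count table, 67 carried the name of a guidance cue or of a guidance receptor and are described here. The rule that picked them goes by gene symbol and uses no measured value. It gave 20 semaphorins, 9 plexins, 2 neuropilins, 4 ROBO receptors, 3 SLIT ligands, 8 EPHA and 5 EPHB receptors, 5 ephrin-A and 3 ephrin-B ligands, 4 netrins and 4 UNC5 receptors. Poly(A) RNA was sequenced from 6 libraries labelled as PANC-1, a long-established human cell line grown from a pancreatic tumour. In 3 of them, called EV libraries, the cells are labelled as treated with extracellular vesicles from cancer-associated fibroblasts (CAFs), the activated fibroblasts of tumour stroma. The other 3, called control libraries, are labelled as untreated. The protocol text describes vesicle pretreatment in the same words for all 6, so the groups rest on titles and treatment labels. The sources used here state no vesicle dose and no exposure time. Separate cultures are not mentioned in the labels either, so the error behind each p-value is that among libraries and may be technical.

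Guidance cues were found as signals that attract or repel growing axons, and carcinoma cells, endothelium and fibroblasts use the same genes to regulate adhesion, migration and contact with neighbours. Semaphorins bind plexins, and most secreted class 3 semaphorins need a neuropilin as co-receptor. SLIT proteins bind ROBO receptors such as ROBO1. Netrins bind DCC, neogenin and UNC5 receptors, and membrane-bound ephrins activate EPH receptor tyrosine kinases on adjoining cells. In pancreatic carcinoma these pathways are known for recurrent alterations in the tumour genome and for growth of tumour cells along nerves.

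Total counts were 21669757 to 27134375 in the EV libraries and 23646239 to 27535620 in the control libraries. Levels are in CPM, counts scaled to library size. Where a gene had 0 counts, up to 3 counts remain possible, equal to 0.109 to 0.138 CPM by library, from counting error alone. Of 9 listed markers of the labelled line, 5 were tested, 0 rose and 2 fell, and together they summed to 6766 to 7340 CPM in EV libraries and 7069 to 7679 CPM in control libraries. The intermediate filament genes KRT19 and VIM fell, KRT19 to 279.5 ± 14.7 CPM in EV libraries against 391 ± 25.0 CPM in control libraries (edgeR adjusted p = 5.78e-06) and VIM to 1928 ± 57.7 CPM in EV libraries against 2496 ± 51.0 CPM in control libraries (edgeR adjusted p = 2.54e-05). The keratin genes KRT8 and KRT18 were abundant and not called (0.14 ± 0.06 and 0.11 ± 0.06 on the log2 scale). However, CDH1, EPCAM and CDH2, which are on the same list, had 0 counts in all 6, and KRT7 averaged 0.0831 CPM in EV libraries and 0.279 CPM in control libraries. Summed fibroblast markers were 197 to 216 CPM in EV libraries and 115 to 141 CPM in control libraries; COL1A2 made up most of that sum, and DCN, LUM, POSTN and THY1 had 0 counts in all libraries. COL1A2 rose (log2 fold change 0.71 ± 0.07, edgeR adjusted p = 3.72e-07), and the other tested marker, COL3A1, was not called (0.10 ± 0.09, edgeR adjusted p = 0.398). Why line markers are listed at 0 was not tested, so a level of 0 or near 0 describes the deposited table. The part of these markers in the results was not tested either.

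Of the 67 guidance genes, 43 passed the filter on low counts and were tested, and 24 did not pass. With edgeR's quasi-likelihood test over all genes and an adjusted p under 0.05, 8 of the 43 were higher and 11 were lower in EV libraries. Of all 14670 tested genes, 40.9% were called, 20.2% higher and 20.7% lower, and the share among the guidance genes was close to it, at 44.2%. Their median log2 fold change was 0.07, against -0.01 over all tested genes. Changes of at least 2-fold were found in 5 members, SEMA6B and SEMA3F upward and ROBO4, UNC5B and PLXNB3 downward; 3.81% of all tested genes passed the same limit, 0.859% upward and 2.95% downward. The CPM of the groups did not overlap in 24 of the 43, with EV libraries above in 11 and below in 13. That was so for 50.6% of all tested genes, for 25.1% with EV libraries above and for 25.5% with EV libraries below. By role, 5 of 23 tested ligands rose and 3 fell, while 3 of 20 tested receptors rose and 8 fell; the difference between ligands and receptors was not tested.

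**Figure D1:**
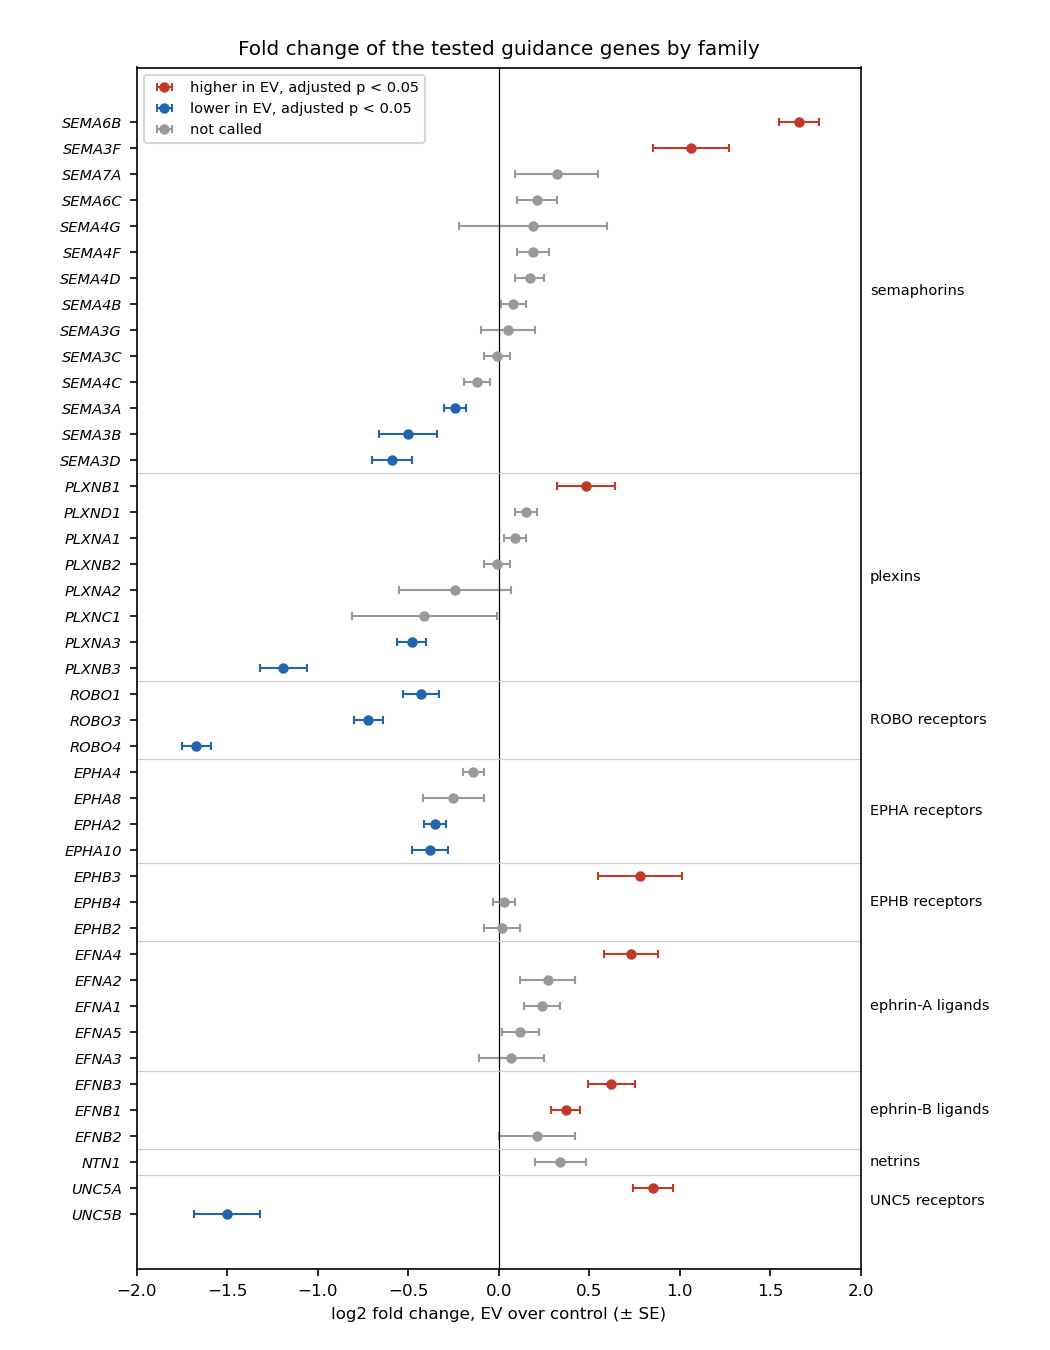
Log2 fold change (EV over control, x axis) of the 43 tested guidance genes, grouped by family; points are edgeR estimates, bars are 1 SE, and colour shows the call at an adjusted p under 0.05. The 3 ROBO genes lie left of 0, from -1.67 to -0.43, as do the 4 EPHA genes, from -0.38 to -0.14. The 8 ephrin ligand genes lie right of it, from 0.07 to 0.73, though most of them were not called. The 3 EPHB genes are also right of 0, from 0.02 to 0.78, and only EPHB3 of them was called. These families are named because their signs agree, and agreement of signs was not tested. The median over all tested genes was -0.01.

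The sequences upstream of 4 members are shown because they belong to the guidance gene with the lowest adjusted p, to its neighbour on the chromosome that fell with it, to the most abundant member, and to a receptor gene that rose. They are the 250 bases before the RefSeq gene start on GRCh38.p14, on the strand of the gene, and capitals mark matches to the motifs searched. The windows are chr11:124897866-124898115 (minus strand) for ROBO4, chr11:124875932-124876181 (plus strand) for ROBO3, chr1:16156070-16156319 (minus strand) for EPHA2 and chr5:176810309-176810558 (plus strand) for UNC5A.
ROBO4: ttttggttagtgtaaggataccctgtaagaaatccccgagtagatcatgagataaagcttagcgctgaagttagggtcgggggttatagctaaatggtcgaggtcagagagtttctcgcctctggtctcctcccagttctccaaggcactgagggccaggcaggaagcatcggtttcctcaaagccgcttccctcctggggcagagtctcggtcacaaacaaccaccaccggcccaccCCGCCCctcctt
ROBO3: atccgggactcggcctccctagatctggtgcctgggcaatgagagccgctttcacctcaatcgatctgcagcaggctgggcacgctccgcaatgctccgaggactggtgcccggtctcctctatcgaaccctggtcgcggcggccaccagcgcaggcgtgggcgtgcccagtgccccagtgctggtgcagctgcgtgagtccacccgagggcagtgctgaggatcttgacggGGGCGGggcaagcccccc
EPHA2: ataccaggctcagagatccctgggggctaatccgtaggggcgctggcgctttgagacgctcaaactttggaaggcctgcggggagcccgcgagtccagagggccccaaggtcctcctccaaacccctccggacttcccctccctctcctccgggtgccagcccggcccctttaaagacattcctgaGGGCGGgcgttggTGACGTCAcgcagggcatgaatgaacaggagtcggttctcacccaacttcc
UNC5A: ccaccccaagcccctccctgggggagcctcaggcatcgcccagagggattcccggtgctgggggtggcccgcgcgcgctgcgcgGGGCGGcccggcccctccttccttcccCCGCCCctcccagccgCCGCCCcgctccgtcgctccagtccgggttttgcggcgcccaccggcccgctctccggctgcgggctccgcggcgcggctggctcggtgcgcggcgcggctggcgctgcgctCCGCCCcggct

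The motifs, searched on both strands, were the GC box GGGCGG, the TATA box TATAAA, the AP-1 site TGANTCA, the cAMP response element TGACGTCA, the E-box CACGTG, the hypoxia response core ACGTG, which lies within that E-box, the ETS site CCGGAAG and the ATF4 composite element TGATGNAA. A GC box was found in 1 copy each for ROBO4, ROBO3 and EPHA2 and in 4 copies for UNC5A, and the EPHA2 window also held a cAMP response element. Of 35116 RefSeq windows of this length, 42.6% held a GC box and 1.65% held a cAMP response element. Windows were found for 57 of the 67 members, and 42 of them held a GC box, 5 of 6 with a window among those that rose and 5 of 8 among those that fell. The AP-1 site and the ATF4 element, present in 6.57% and 3.14% of all windows, were each in 1 of the 57, which belonged to no called member. The base composition of the windows differed, with 81.2% G and C for UNC5A and 54.8% for ROBO4, against a median of 58.0% over all windows. A match is a sequence of letters and not evidence of binding.

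All 3 tested ROBO receptors fell in EV libraries, while 20.7% of all tested genes were lower. ROBO4, known as the endothelial member of the family that stabilises vessels, had 25.1, 27.2 and 26.9 CPM in EV libraries, against 75.7, 93.1 and 82.2 CPM in control libraries. Every EV library lay far below every control library, 3.17-fold lower in the fit (log2 fold change -1.67 ± 0.08, SE; adjusted p = 1.41e-11). ROBO3, whose protein is known to set when commissural axons cross the midline, had 28.1, 26.4 and 25.6 CPM in EV libraries, against 39.8, 48.7 and 43.1 CPM in control libraries (-0.72 ± 0.08, adjusted p = 1.23e-06). Its groups did not overlap either. ROBO1, the broadly expressed SLIT receptor, had 10.6, 9.76 and 8.92 CPM in EV libraries, against 14, 12.9 and 12.5 CPM in control libraries (-0.43 ± 0.10, adjusted p = 0.00267). ROBO2 had 2 counts in 1 EV library and 0 in the others.

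Per length, as TPM (a level scaled to merged exon length and to the library), the ROBO family summed to 30.8, 31.5 and 31.2 TPM in EV libraries, against 66.1, 78.4 and 70.9 TPM in control libraries. ROBO4 made up 41.8% to 46.2% of that sum in EV libraries and 60.7% to 62.0% in control libraries. In EV libraries its level, 13.8 ± 0.855 TPM, was within the spread of that of ROBO3, 14 ± 0.381 TPM, whereas in control libraries ROBO4 was at 44.1 ± 4.25 TPM and ROBO3 at 23.2 ± 2.16 TPM (SD, n = 3 each). ROBO3 and ROBO4 are adjacent coding genes on chromosome 11 in the RefSeq annotation and lie on opposite strands. In GENCODE v29 they share no exonic bases with each other, while 10.6% of the exonic length of ROBO4 is shared with AP003501.1 and 6.4% with AP003501.2, both on the opposite strand and not analysed here. Since the counting is not stated to use strand, reads from both strands cannot be told apart there.

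ROBO4 is known from endothelium, so the endothelial markers were read beside it. Of 7 markers, 1 was tested, CDH5, at 4.71 ± 0.502 CPM in EV libraries and 4.23 ± 0.274 CPM in control libraries, and it was not called (adjusted p = 0.415). The markers summed to 4.46 to 5.51 CPM in EV libraries and 4.63 to 5.21 CPM in control libraries, ranges that overlap, and TEK and ERG had 0 counts in all libraries. In bulk RNA, fewer cells with a transcript and less of it per cell cannot be told apart.

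The SLIT ligand genes were near the limit of detection. SLIT1 had 8, 4 and 5 counts in EV libraries and 15, 11 and 9 counts in control libraries, and SLIT2 and SLIT3 had at most 1 count in any library. None of the 3 passed the filter, so no fold change is given. The SLIT-binding proteoglycan gene GPC1, outside the 67, was at 138 ± 4.54 CPM in EV libraries and 82.1 ± 9.43 CPM in control libraries and rose (0.75 ± 0.07, adjusted p = 1.62e-07).

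The UNC5 receptors, which carry repulsive netrin signals and are known as dependence receptors that can trigger cell death without ligand, moved in opposite directions. UNC5A had 11.1, 11.1 and 9.48 CPM in EV libraries, against 5.78, 6.14 and 5.65 CPM in control libraries, and rose (log2 fold change 0.85 ± 0.11, adjusted p = 1.12e-05). UNC5B had 3.70, 2.70 and 2.93 CPM in EV libraries, against 6.56, 11.6 and 8.25 CPM in control libraries, and fell (-1.50 ± 0.18, adjusted p = 3.77e-06). In neither gene did the groups overlap, although UNC5B varied widely among control libraries. Per length UNC5A was at 8.91 ± 0.637 TPM and UNC5B at 1.67 ± 0.249 TPM in EV libraries; in control libraries UNC5A, at 4.99 ± 0.172 TPM, lay within the spread of UNC5B, at 4.77 ± 1.35 TPM (SD, n = 3 each). UNC5A thus made up 82.3% to 86.6% of the summed UNC5 level in EV libraries and 45.3% to 57.9% in control libraries. The sum itself, 9.80 to 11.1 TPM in EV libraries, overlapped the 8.55 to 11.4 TPM of control libraries. UNC5C had at most 3 counts in a library and UNC5D had 0 in all.

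Netrin 1, the ligand of these receptors, was the only netrin gene tested. NTN1 had 27.1, 22.6 and 29.9 CPM in EV libraries, against 24.3, 24.3 and 14.7 CPM in control libraries, and was not called (0.34 ± 0.14, adjusted p = 0.0601). One control library lay below all others, and the remaining values overlapped. Without control replicate 3, NTN1 was at 0.13 (adjusted p = 0.324), but it passed without control replicate 1 (0.45, adjusted p = 0.0266), without control replicate 2 (0.46, adjusted p = 0.0206) and without EV replicate 2 (0.44, adjusted p = 0.0308). It also passed with limma-voom (adjusted p = 0.0477), with no count filter (adjusted p = 0.000638) and with the replicate number as a block (adjusted p = 0.0260), which raises the higher members among SLIT, ROBO, netrin and UNC5 genes from 1 to 2. NTN3, NTN4 and NTN5 had 0 to 10 counts in each library. The attractant netrin receptors outside the 67, DCC and neogenin (NEO1), were not called, at -0.11 ± 0.29 and -0.08 ± 0.08.

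**Figure D2:**
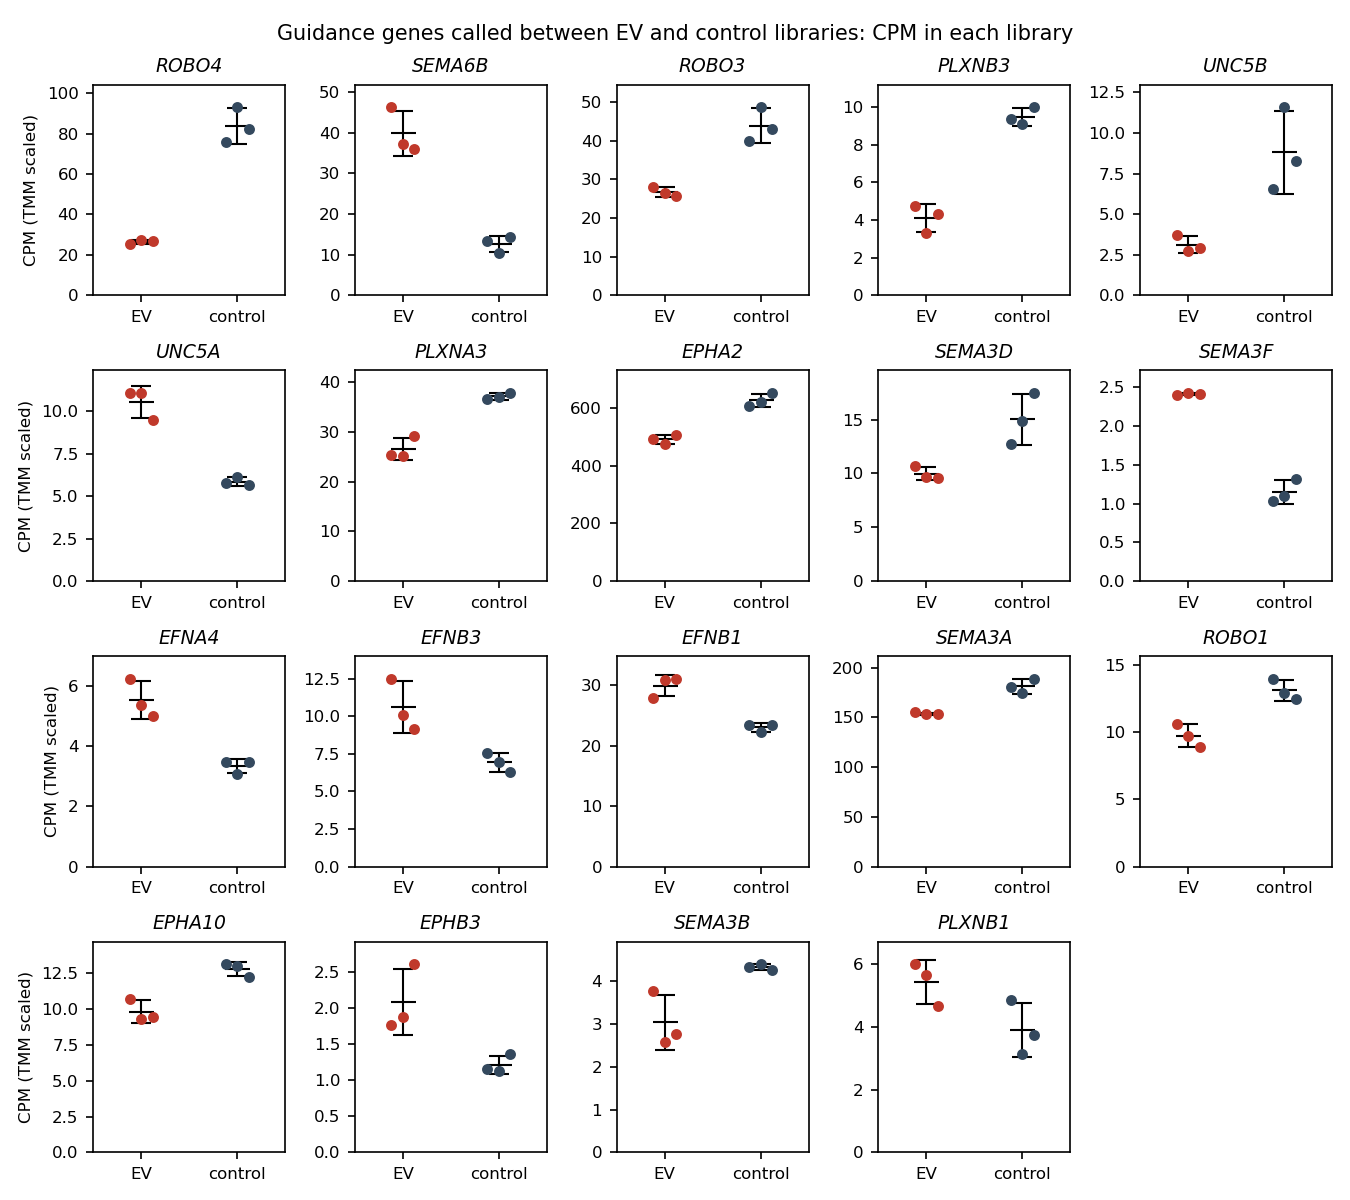
CPM (y axis, TMM scaled, from 0) of the 19 called guidance genes in each EV and control library, ordered by adjusted p; points are libraries, and bars show the mean and SD of 3. The groups overlap in PLXNB1 and in none of the other 18.

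Among the semaphorins, 2 of 14 tested genes rose and 3 fell, against 20.2% higher and 20.7% lower of all tested genes. SEMA6B, a transmembrane semaphorin that binds plexin-A receptors, had 46.3, 37.1 and 36.0 CPM in EV libraries, against 13.3, 10.3 and 14.2 CPM in control libraries. Each EV library lay well above the highest control library (3.16-fold in the fit; log2 fold change 1.66 ± 0.11, adjusted p = 1.86e-09). Its share of the summed semaphorin level per length was 9.65% to 11.8% in EV libraries and 3.0% to 3.75% in control libraries. Its relative SEMA6C had 8.24 ± 0.589 CPM in EV libraries and 7.11 ± 0.178 CPM in control libraries and was not called (adjusted p = 0.138), SEMA6A had 3 to 10 counts in each library, and SEMA6D had 0.

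The secreted class 3 semaphorins, which act mainly as repellents, included 6 tested genes, of which 1 rose and 3 fell. Of all tested genes, 20.2% were higher and 20.7% lower. SEMA3F, known as a suppressor of tumour vessels, had 2.40, 2.43 and 2.41 CPM in EV libraries, against 1.03, 1.10 and 1.32 CPM in control libraries, and rose (1.06 ± 0.21, adjusted p = 0.000439); these values rest on 53 to 65 counts and 24 to 36 counts. SEMA3D had 10.7, 9.67 and 9.60 CPM in EV libraries, against 12.7, 14.9 and 17.5 CPM in control libraries, and fell (-0.59 ± 0.11, adjusted p = 0.000393). SEMA3A, the prototype axon repellent, had 155, 153 and 153 CPM in EV libraries, against 181, 174 and 189 CPM in control libraries. That fall was small, though no library of one group reached the other (-0.24 ± 0.06, adjusted p = 0.00241). SEMA3B had 3.77, 2.57 and 2.77 CPM in EV libraries, against 4.33, 4.39 and 4.25 CPM in control libraries (-0.50 ± 0.16, adjusted p = 0.0196), and it no longer passed when EV replicate 2 (adjusted p = 0.0947) or EV replicate 3 (adjusted p = 0.0835) was left out. SEMA3C, the most abundant semaphorin gene, had 172, 175 and 177 CPM in EV libraries, against 174, 159.9 and 193 CPM in control libraries. It was not called, and the 95% interval of its log2 fold change, -0.13 to 0.12, holds changes in both directions.

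SEMA3F and SEMA3B lie on chromosome 3 with 3 coding genes between them, and moved in opposite directions. Of those 3, GNAI2 was tested, at 252 ± 16.5 CPM in EV libraries and 279 ± 13.1 CPM in control libraries, and was not called (-0.15 ± 0.06, adjusted p = 0.0613). On chromosome 7, SEMA3E, SEMA3A and SEMA3D follow each other. SEMA3A and SEMA3D fell, and SEMA3E had 0 counts in all libraries. SEMA3C, on the other side of SEMA3E with 3 coding genes between them, was not called (-0.01 ± 0.07, adjusted p = 0.960). Class 4 semaphorins, membrane proteins that mostly bind plexin-B receptors, included 5 tested genes and no call, while 40.9% of all tested genes were called. SEMA4B was at 92.8 ± 7.45 CPM in EV libraries and 87.8 ± 3.85 CPM in control libraries, and SEMA4C at 56.3 ± 3.0 CPM in EV libraries and 61.3 ± 2.75 CPM in control libraries. SEMA4D, the ligand of plexin-B1, was at 20.9 ± 0.536 CPM in EV libraries and 18.6 ± 0.462 CPM in control libraries; the groups did not overlap, but the adjusted p was 0.0935. SEMA4F was at 0.19 ± 0.09, SEMA4G at 0.19 ± 0.41, SEMA7A, the GPI-anchored member, at 0.32 ± 0.23 and SEMA3G at 0.05 ± 0.15 on the log2 scale, all uncalled. In SEMA4G, 22.3% of the exonic length is shared with the opposite-strand gene MRPL43, at 67.2 ± 4.84 CPM in EV libraries and 58.7 ± 3.95 CPM in control libraries, against 0.501 ± 0.215 CPM in EV libraries and 0.452 ± 0.173 CPM in control libraries for SEMA4G itself, whose reads are therefore uncertain. SEMA4A had at most 3 counts in a library, SEMA5B at most 1 and SEMA5A 0.

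Plexins, the signalling receptors for semaphorins, fell in 2 of 8 tested genes and rose in 1. Of all tested genes, 20.7% were lower and 20.2% higher. PLXNB3, a receptor for SEMA5A, had 4.73, 3.30 and 4.34 CPM in EV libraries, against 9.34, 9.10 and 10.0 CPM in control libraries, 2.29-fold lower (-1.19 ± 0.13, adjusted p = 1.25e-06). In GENCODE v29, 20.4% of its exonic length is shared on the same strand with the neighbouring kinase gene SRPK3, so reads there are uncertain; SRPK3 was not called (-0.41 ± 0.20, adjusted p = 0.103). PLXNA3, which with a neuropilin transmits class 3 signals, had 25.4, 25.2 and 29.1 CPM in EV libraries, against 36.6, 37.0 and 37.9 CPM in control libraries (-0.48 ± 0.08, adjusted p = 5.15e-05). In both genes the EV libraries were all below the control libraries. Both are on the X chromosome, as is the ephrin gene EFNB1, which rose (0.37 ± 0.08, adjusted p = 0.000745). PLXNB1, the SEMA4D receptor, had 5.99, 5.64 and 4.66 CPM in EV libraries, against 4.84, 3.14 and 3.74 CPM in control libraries, with 1 EV library below 1 control library (0.48 ± 0.16, adjusted p = 0.0230). PLXNB1 no longer passed when EV replicate 1 (adjusted p = 0.0950), EV replicate 2 (adjusted p = 0.0637), control replicate 2 (adjusted p = 0.116) or control replicate 3 (adjusted p = 0.0575) was left out.

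The 3 most abundant plexin genes were not called. PLXND1, the receptor for SEMA3E, had 241, 227 and 252 CPM in EV libraries, against 227, 214 and 207 CPM in control libraries (0.15 ± 0.06, adjusted p = 0.0526). The groups met at 227 CPM, and the gene passed in 7 of 14 other settings, without EV replicate 2 (adjusted p = 0.0423), without control replicate 1 (adjusted p = 0.0314) and, among others, with DESeq2 (adjusted p = 0.0388). PLXNA1 was at 0.09 ± 0.06 and PLXNB2 at -0.01 ± 0.07 on the log2 scale. Per length, PLXND1 led in both groups, at 90.7 ± 5.87 TPM in EV libraries and 82.4 ± 4.03 TPM in control libraries. PLXNA1 followed at 74.9 ± 5.15 TPM in EV libraries and 70.8 ± 5.73 TPM in control libraries, and was not separated from PLXNB2 beyond their spread, at 70.5 ± 3.54 TPM in EV libraries and 71.5 ± 6.03 TPM in control libraries. PLXNA2 and PLXNC1, at 7 to 28 counts, were tested and not called, and PLXNA4 had at most 3 counts.

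The co-receptors of class 3 semaphorins had few counts in the deposited table. NRP1 had 13, 9 and 9 counts in EV libraries and 6, 9 and 3 counts in control libraries, NRP2 had at most 1, and both were filtered out. Summed per length they reached at most 0.150 TPM, against 171 to 179 TPM for class 3 semaphorins in EV libraries and 175 to 205 TPM in control libraries. The alternative neuropilin ligand VEGFA, outside the 67, was at 57.9 ± 7.41 CPM in EV libraries and 170.0 ± 15.3 CPM in control libraries and fell (-1.55 ± 0.08, adjusted p = 6.6e-11). L1CAM, an adhesion molecule that joins the SEMA3A receptor complex, was at 12.4 ± 1.58 CPM in EV libraries and 4.11 ± 1.48 CPM in control libraries and rose (1.58 ± 0.17, adjusted p = 8.43e-07).

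**Figure D3:**
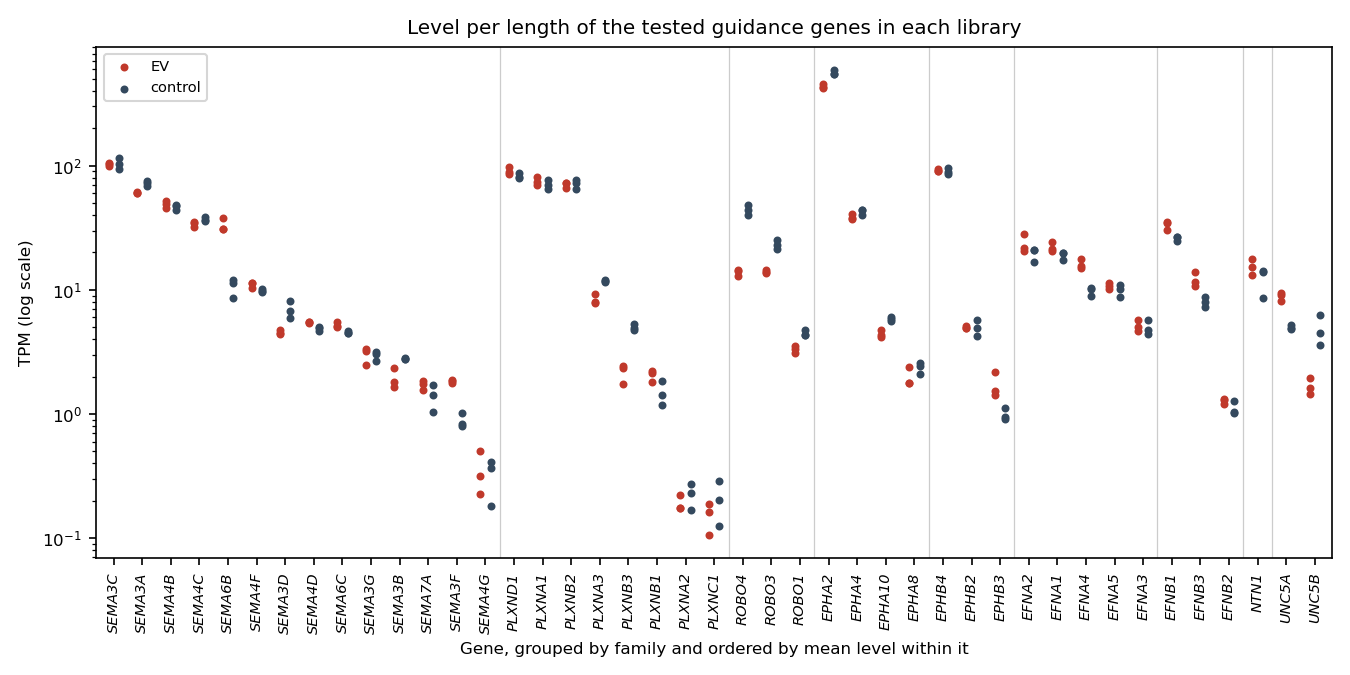
Level per length (TPM over merged exons, log axis) of the 43 tested guidance genes in each library, grouped by family and ordered by mean level; EV libraries are left of control libraries for each gene. EPHA2 is the highest member, at 436 TPM on average in EV libraries and 559.8 TPM in control libraries.

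Of the ephrin ligands, 3 of 8 rose and none fell, against 20.2% higher and 20.7% lower of all tested genes. EFNB1, a transmembrane ephrin that also signals back into its own cell, had 27.9, 30.8 and 31.1 CPM in EV libraries, against 23.5, 22.2 and 23.5 CPM in control libraries (0.37 ± 0.08, adjusted p = 0.000745). EFNB3, known as a midline barrier of the spinal cord in mice, had 12.5, 10.1 and 9.16 CPM in EV libraries, against 7.54, 6.95 and 6.31 CPM in control libraries (0.62 ± 0.13, adjusted p = 0.000703). EFNA4, a GPI-anchored ligand, had 6.25, 5.36 and 5.02 CPM in EV libraries, against 3.47, 3.07 and 3.48 CPM in control libraries (0.73 ± 0.15, adjusted p = 0.000517). In these 3 genes every EV library was above every control library. Summed per length, ephrin-B ligands were at 45.7, 47.1 and 47.3 TPM in EV libraries, against 36.2, 33.6 and 35.0 TPM in control libraries.

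The other ephrin ligands were above 0 on the log2 scale without passing the test. EFNA5, the ephrin-A gene with the highest CPM, had 16.0, 16.6 and 17.2 CPM in EV libraries, against 16.6, 15.8 and 13.5 CPM in control libraries (0.12 ± 0.10, adjusted p = 0.338). EFNA1, the ligand most often paired with EPHA2, was at 15.2 ± 1.68 CPM in EV libraries and 12.9 ± 1.04 CPM in control libraries (0.24 ± 0.10, adjusted p = 0.0743). Its groups did not overlap, and it passed without EV replicate 3 (0.31, adjusted p = 0.0460). EFNA2 was at 0.27 ± 0.15, EFNB2 at 0.21 ± 0.21 and EFNA3 at 0.07 ± 0.18 on the log2 scale, and EFNA3 turned to -0.02 without control replicate 3. EFNA4, EFNA3 and EFNA1 are consecutive coding genes on chromosome 1, and of them EFNA4 passed the test. GENCODE v29 places another gene on the same strand, AL691442.1, over 15.0% of the exonic length of EFNA4 and 44.7% of that of EFNA3, so reads in these parts are uncertain. An opposite-strand gene, AL138689.2, covers 26.2% of the exonic length of EFNB2, with the same uncertainty. Per length EFNA2 led the ephrin-A genes, at 23.4 ± 4.31 TPM in EV libraries and 19.5 ± 2.42 TPM in control libraries, within the spread of EFNA1, at 22.0 ± 1.96 TPM in EV libraries and 18.9 ± 1.42 TPM in control libraries.

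EPHA receptors fell in 2 of 4 tested genes, against 20.7% lower of all tested genes. EPHA2, a kinase often raised in carcinomas and the most abundant of the 67 genes, had 493, 477 and 506 CPM in EV libraries, against 607, 621 and 654 CPM in control libraries. The groups were clearly apart, with a 1.27-fold lower level (-0.35 ± 0.06, adjusted p = 6.7e-05). Per length EPHA2 made up 90.5% to 90.7% of the summed EPHA level in EV libraries and 91.2% to 91.9% in control libraries. EPHA10, a family member without kinase activity, had 10.7, 9.26 and 9.44 CPM in EV libraries, against 13.1, 13 and 12.2 CPM in control libraries (-0.38 ± 0.10, adjusted p = 0.00587). EPHA4, a receptor for both ephrin classes, was at 79.2 ± 2.84 CPM in EV libraries and 87.0 ± 3.39 CPM in control libraries and was not called (-0.14 ± 0.06, adjusted p = 0.0785), although it passed without control replicate 2 (adjusted p = 0.0498) and with upper-quartile scaling (adjusted p = 0.0426). EPHA8 was at -0.25 ± 0.17, also uncalled. EPHA1, EPHA3, EPHA5 and EPHA7 had 0 to 5 counts in each library.

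Among EPHB receptors, 1 of 3 tested genes rose, against 20.2% higher of all tested genes. EPHB3, known from the ordering of cells along intestinal crypts, had 1.77, 1.88 and 2.61 CPM in EV libraries, against 1.16, 1.13 and 1.36 CPM in control libraries (0.78 ± 0.23, adjusted p = 0.0102). It rests on 41 to 65 counts in EV libraries and 27 to 37 counts in control libraries, and was not called without EV replicate 3 (0.59, adjusted p = 0.0826). EPHB4, the receptor of ephrin-B2, had 163, 157 and 162 CPM in EV libraries, against 166, 157 and 148 CPM in control libraries, with overlapping groups and a 95% interval of -0.08 to 0.15 on the log2 scale. EPHB2 was at 0.02 ± 0.10, with an interval of -0.17 to 0.22. EPHB1 and EPHB6 had at most 2 counts in a library.

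Other genes of the pathway were listed as co-receptors, ligands, proteases, GTPase regulators, adaptors, kinases and cytoskeletal effectors. Of 80 listed, 63 were tested, of which 8 rose and 22 fell, with a median log2 fold change of -0.10. That is 47.6% called, against 40.9% of all tested genes (20.2% higher and 20.7% lower) and a median of -0.01 over them. Without EV replicate 1, 5 rose and 19 fell. The group includes the RhoA exchange factor gene NGEF (ephexin), which acts below EPHA4 and was at 93.1 ± 1.99 CPM in EV libraries and 142 ± 5.47 CPM in control libraries (-0.61 ± 0.06, adjusted p = 1.31e-07). The kinase genes ABL2 and FYN, which relay several guidance signals, also fell, ABL2 to 67.5 ± 4.49 CPM in EV libraries against 109.7 ± 6.41 CPM in control libraries (adjusted p = 1.34e-07), and FYN to 3.90 ± 0.403 CPM in EV libraries against 8.96 ± 2.23 CPM in control libraries (adjusted p = 9.48e-06). Of those that rose, DPYSL5, a collapsin response mediator, was at 49.5 ± 2.31 CPM in EV libraries and 28.8 ± 2.94 CPM in control libraries (0.78 ± 0.08, adjusted p = 2.42e-07), and the adaptor gene GRB2 was at 239.5 ± 1.00 CPM in EV libraries and 193 ± 2.50 CPM in control libraries (0.31 ± 0.05, adjusted p = 0.00015). VEGFA fell, and L1CAM and GPC1 rose, as given above. Neuronal and Schwann cell markers summed to 20.3 to 25.9 CPM in EV libraries and 18.3 to 19.5 CPM in control libraries. TUBB3 rose (0.38 ± 0.10, adjusted p = 0.00450), and the other tested marker, SYP, was not called (0.22 ± 0.14, adjusted p = 0.213). STMN2 and S100B had 0 counts in all libraries, and the part of these markers in the results was not tested.

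The authors' deposited table held 62 of the 67 genes, and its fold changes run control over EV, by its own group means. In the authors' deposited table ROBO4, PLXNB3 and UNC5B are marked up, that is higher in control libraries, and SEMA6B, SEMA3F and EPHA1 are marked down. The q-value in the authors' deposited table was under 0.05 for 19 members, the same 19 that edgeR called from the same libraries. For EPHA1 the q-value in the authors' deposited table was 0.12, and its counts were 2, 5 and 5 in EV libraries and 2, 0 and 1 in control libraries.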

How the data were processed

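Poly(A) RNA of 3 EV and 3 control libraries was sequenced. The files deposited by the authors are a gene table holding raw whole-number counts and a table of their own comparison with log2 means and log2 fold changes, p-values and q-values. TopHat, RSEM and the build hg19 appear in the submitters' processing notes, and the library kit marks strand per the labels' protocols; the sources used here do not state versions, annotation or the strand setting of the counting. The 375 assembled loci without a gene name (0.099% to 0.134% of counts) were left out. The test across genes was that of edgeR 4.0.16 under R 4.3.3 (quasi-likelihood test, TMM factors, filterByExpr, Benjamini-Hochberg adjustment over all tested genes), two-sided, and called at an adjusted p under 0.05. The SE was obtained from the log2 fold change and its F statistic, and CPM used TMM factors. TPM were computed here from CPM and merged exon lengths of GENCODE v29, which are on GRCh38 and were found for all 67 members. Intervals of 95% are normal intervals from that SE.

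No pair of libraries agreed within sampling noise. Values of each library are given for the 19 called members and the member of each family with the highest CPM, and of the other pathway genes 4 per direction are named, those ranked first by adjusted p; the uncalled netrin receptor genes DCC and NEO1 were added after their values were seen. The members and lists were chosen with earlier results of these data known. Other settings tried were scaling by median ratios, by upper quartiles or by library totals, no filter on counts, 1 CPM in 3 libraries, DESeq2 1.42.0, limma-voom (limma 3.58.1), the replicate number as a block, each library left out, and an adjusted p under 0.01.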

Additional observations from a re-analysis of the deposited data

How the results depend on the processing

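Of the 19 called members, 16 kept their call in all 14 alternatives of scaling, filter, tool, block and left-out library, and PLXNB1, SEMA3B and EPHB3 lost it without single libraries, as given above; no called member changed sign. At an adjusted p under 0.01, 6 members were higher and 10 lower, against 2036 higher and 2057 lower of all 14670 tested genes. Scaling moved the median of all genes by at most 0.02 on the log2 scale. Higher members among SLIT, ROBO, netrin and UNC5 genes numbered 2 in place of 1 without a count filter, with limma-voom and with the replicate block, and 1 to 2 when libraries were left out; NTN1 was the addition. Higher pathway partners numbered 5 at an adjusted p under 0.01, and 5 to 8 when libraries were left out. Lower partners ranged from 19 to 23 when libraries were left out. Uncalled members near 0 changed sign. SEMA3C was at 0.00 with median-ratio scaling and DESeq2 and 0.01 with library totals and no filter, and PLXNB2 at 0.00 with library totals and no filter. With a library left out, SEMA3C ranged from -0.07 to 0.07, PLXNB2 from -0.08 to 0.04, SEMA3G from -0.01 to 0.17, SEMA4G from -0.22 to 0.43, EPHB2 from -0.08 to 0.13, EPHB4 from -0.01 to 0.08 and EFNA3 from -0.02 to 0.17; the cause was not tested. With no length correction, 8 of 9 families kept their highest member, and EFNA5 replaced EFNA2. Same-numbered libraries did not deviate together (correlations -0.021, -0.009 and -0.011). That shows no shared shift by number, but it cannot tell whether the libraries were paired. The replicate block gave 9 higher and 11 lower members, against 2846 higher and 2897 lower over all genes. The 24 members that failed the filter were not tested in the main fit. Without a count filter, 10 members were higher and 11 lower, against 3086 higher and 2893 lower over all genes of that fit. The additions, NTN1 and PLXND1, are not among these 24. The CPM of SLIT1 in EV libraries lay below, and those of NRP1 and SEMA6A above, all control libraries, on 3 to 15 counts each. In each gene the closest EV and control libraries had equal or nearly equal counts, and the cause of these separations was not tested. SEMA6A had 8 counts in EV replicate 1 and in control replicate 3, and NRP1 had 9 in EV replicates 2 and 3 and in control replicate 2. SLIT1 had 8 in EV replicate 1 and 9 in control replicate 3. How often untested genes separate in this way was not computed.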
